A study of Mus musculus with 15 samples.

Results

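The 10 genes of G protein signalling described here were followed through 5 populations of responding B cells of the mouse: Gna13, Gnai2 and Gnai3, which encode G alpha subunits, Arhgef1 and Rhoa, which act below G alpha 13, and the regulators Rgs1, Rgs2, Rgs10, Rgs13 and Rgs19. They were chosen by symbol, and all 10 of 10 were found among the 23420 genes of the deposited expression table. Each was above 0 in enough libraries to enter the test that covered 11190 genes.

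Receptors that place B cells in a lymph node or spleen signal through heterotrimeric G proteins. Chemokine receptors such as CXCR4 and CXCR5 couple to G alpha i proteins, of which Gnai2 and Gnai3 are members, and draw cells towards the dark zone or the light zone of the germinal centre. The sphingosine phosphate receptor S1PR2 couples to G alpha 13, which activates the exchange factor ARHGEF1 and through it the small GTPase RHOA, and this route holds germinal centre B cells in the follicle and restrains their migration. RGS proteins end such signals by speeding up the hydrolysis of GTP on the alpha subunit, and Rgs1 and Rgs13 are known as regulators of chemokine responses in germinal centre B cells.

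The study profiled RNA of 100 sorted cells per library, with 3 libraries in each of 5 groups and with molecular barcodes added in reverse transcription. GC-PB are germinal centre derived plasmablasts (CD45.1+ CD138hi CD44hi tdTomato+). Their donors carried B1-8hi (KI/+), S1pr2-ERT2cre Tg and ROSA-Ai14 (KI/+), and the recipients were given tamoxifen on days 6, 7 and 8, so that the label marks cells, and descendants of cells, in which the S1pr2-driven Cre was active then. The other groups are B220+ CD45.1+ CD38lo GL7hi germinal centre B cells from donors that carried B1-8hi (KI/+) and Bcl6-YFP (KI/+). Among them, light zone cells (CXCR4lo CD86hi) were divided into Fraction 1 (CD69hi Bcl6lo), Fraction 2 (CD69hi Bcl6hi) and Fraction 3 (CD69lo Bcl6hi), and DZ are dark zone cells (CXCR4hi CD86lo). In every group the donor B cells, whose B1-8hi receptor recognises the hapten NP, had been placed in C57BL6 hosts, NP-CGG with CFA had served as the immunogen, and draining lymph nodes were taken on day 12. No age is given, and replicates are described as independent library preparations, so the p-values measure the spread between libraries, which may be technical.

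Levels below are deposited signal values brought to equal library totals, with the ribosomal RNA precursor Rn45s left out of the total, and mean values carry the SD over n = 3 libraries. Changes are differences of log2(level + 1) ± SE from limma, with p-values adjusted by Benjamini-Hochberg over all 11190 genes, and a gene was called where the adjusted p lay under 0.05. Because of the added 1, such a difference understates the change of a gene at a low level. Deposited totals ran from 27942 to 115088 per library, and 9185 to 10132 genes were above 0. Most values above 0, between 91.0% and 92.6% per library, were whole multiples of 1 constant per library within 0.02 of it. This constant was 0.305 to 0.362 in GC-PB and Fraction 1 and 0.105 to 0.139 in Fraction 2, Fraction 3 and DZ, and the labels do not explain it. Counted in multiples of it, totals were lowest in GC-PB, at 184103 to 216584. They were 326122 to 376992 in Fraction 1, 335639 to 368603 in Fraction 2, 231687 to 284687 in Fraction 3 and 256836 to 305359 in DZ. Gnai3, Rgs2 and Rgs19 rested on 4 to 12, 4 to 11 and 5 to 16 multiples per GC-PB library. Xist, the transcript of the inactive X chromosome, followed the divide of the constant, at 8.94 to 14.4 in the 6 GC-PB and Fraction 1 libraries and 0 in the other 9. The Y-linked gene Ddx3y ran the other way, at 0 to 0.0406 in the GC-PB and Fraction 1 libraries and 3.91 to 6.21 in the other 9, and the labels give no sex of donors or hosts. The comparison of Fraction 1 with Fraction 2 crosses this divide with every library, so what sets the divide, sex included, cannot be told apart there from the sorted phenotype. The summed level of 5 germinal centre markers was 1.16 to 1.97 in GC-PB, with Bcl6 at 0, and 10.8 to 15.9 in Fraction 1, 42.1 to 47.7 in Fraction 2, 55.3 to 67.0 in Fraction 3 and 59.2 to 66.5 in DZ. The sum of 7 plasmablast markers was 1993 to 2626 in GC-PB and 34.2 to 80.0 in the other groups. Of 8 T cell markers, Cd3e, Cd4 and Il7r were at 0 in every library, and Lck and Cd2 carried most of the sum. Lck averaged 0.341 in GC-PB, 3.98 in Fraction 1, 5.02 in Fraction 2, 4.36 in Fraction 3 and 1.83 in DZ, and Cd2 0.708, 0.526, 1.57, 2.22 and 4.15 in the same order of groups. At equal totals Lck was called lower in GC-PB than in Fraction 1 and higher in Fraction 2 and in Fraction 3 than in DZ, and Cd2 lower in Fraction 1 than in Fraction 2 and lower in Fraction 2 than in DZ.

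The RGS genes Rgs1, Rgs2 and Rgs13 are neighbours. On chromosome 1 (mm10), Rgs2 lies at 143999338 to 144004161, Rgs13 at 144138654 to 144177372 and Rgs1 at 144242296 to 144249242, each on the minus strand. With Rgs21 and Rgs18 they are the 5 protein-coding genes in a span of 776.1 kb, and the gaps are 134.5 kb from Rgs2 to Rgs13 and 64.9 kb from Rgs13 to Rgs1. Rgs18 was above 0 in 8 libraries and reached at most 0.526, while Rgs1, Rgs2 and Rgs13 were above 0 in 14, 15 and 13 libraries. Rgs10 lies elsewhere, on chromosome 7 at 128373621 to 128418758 on the minus strand. The promoters of Rgs2 and Rgs13 are shown because both genes were lower in GC-PB than in Fraction 1 from the same cluster, and that of Rgs10 because it was higher there. The sequences are from RefSeq (GRCm38.p6), cover 250 bases before and 50 bases after the start, run 5′ to 3′ along the gene, and have in capitals each GC box (GGGCGG) or CCAAT box (CCAAT) found on either strand.
Rgs2, chr1:144004100-144004399, minus strand: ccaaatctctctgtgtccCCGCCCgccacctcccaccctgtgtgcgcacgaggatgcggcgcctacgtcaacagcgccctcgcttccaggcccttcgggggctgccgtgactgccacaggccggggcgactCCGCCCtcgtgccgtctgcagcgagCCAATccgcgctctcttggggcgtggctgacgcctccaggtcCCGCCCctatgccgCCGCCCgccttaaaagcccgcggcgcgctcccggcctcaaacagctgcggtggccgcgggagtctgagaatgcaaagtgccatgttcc
Rgs13, chr1:144177323-144177622, minus strand: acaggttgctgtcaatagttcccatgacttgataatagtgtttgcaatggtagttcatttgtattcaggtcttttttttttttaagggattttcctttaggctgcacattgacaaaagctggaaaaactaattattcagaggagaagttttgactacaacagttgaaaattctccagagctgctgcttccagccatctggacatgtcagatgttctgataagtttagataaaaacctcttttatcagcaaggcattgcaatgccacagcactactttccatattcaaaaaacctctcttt
Rgs10, chr7:128418123-128418422, minus strand: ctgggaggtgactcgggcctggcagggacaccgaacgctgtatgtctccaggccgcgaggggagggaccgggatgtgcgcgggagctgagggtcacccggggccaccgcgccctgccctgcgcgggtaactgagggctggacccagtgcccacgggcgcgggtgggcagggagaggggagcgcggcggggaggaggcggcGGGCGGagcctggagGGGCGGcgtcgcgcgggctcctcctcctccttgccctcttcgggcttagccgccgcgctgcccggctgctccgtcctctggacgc
The Rgs13 promoter held no CpG, no GC box and no CCAAT box, and 36.7% of its bases were G or C. The Rgs2 promoter held 33 CpG, 4 GC boxes and 1 CCAAT box at 70.0% G or C, and the Rgs10 promoter 34 CpG and 2 GC boxes at 76.0%. Over 32851 mouse promoters of the same 300 bases the median was 7 CpG and 52.7% G or C, and 35.7% held a GC box and 37.4% a CCAAT box. Promoters with fewer CpG made up 91.4% of the table for Rgs2 and 92.3% for Rgs10. The neighbours Rgs2 and Rgs13 had unlike promoter composition. The Rgs10 window, whose upper end is 128418422, lies inside the gene as positioned here, which extends to 128418758. For Rgs10 the RefSeq start thus differs from the outer end of the GENCODE gene. The RefSeq promoter table matched 8 of the 10 genes, and Rgs1 and Gnai2 are named only.

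**Figure D1:**
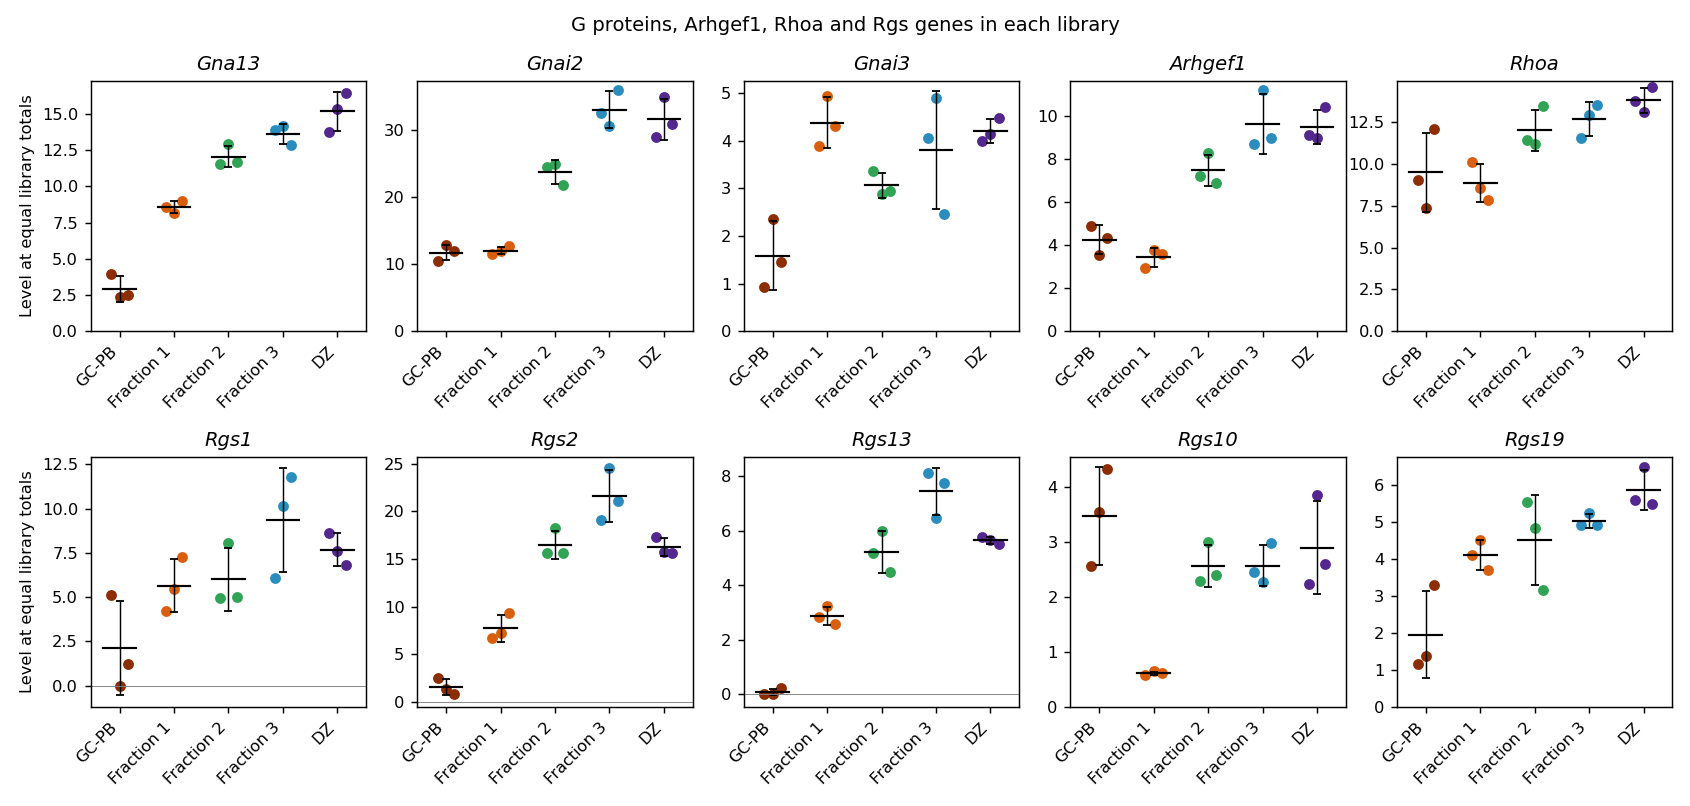
Level at equal library totals (vertical axis, a linear scale that differs between panels) of the 10 genes in each of 15 libraries, with points for libraries, lines for group means and bars for ± SD (n = 3). Rgs13 sits at 0, 0 and 0.207 in GC-PB against 2.59 to 3.22 in Fraction 1, and Rgs10 is lowest in Fraction 1, at 0.588 to 0.645.

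Gna13, the alpha subunit through which S1PR2 signals, was lowest in plasmablasts. Its level was 3.96, 2.36 and 2.48 in the 3 GC-PB libraries, 8.59, 8.17 and 8.99 in Fraction 1, 11.6, 12.9 and 11.7 in Fraction 2, 13.9, 14.2 and 12.9 in Fraction 3 and 13.8, 15.3 and 16.5 in DZ. GC-PB lay below Fraction 1 and Fraction 1 below Fraction 2 with no overlap, while Fraction 2, Fraction 3 and DZ overlapped with their neighbours in this order. Gna13 averaged 2.93 ± 0.889 in GC-PB against 8.58 ± 0.409 in Fraction 1 (SD, n = 3 each), a ratio of 0.342. The difference was -1.31 ± 0.14 (limma, adjusted p = 1.95e-07). It was -2.07 on the values as deposited and -1.09 with size factors from median ratios. In these pools, fewer expressing cells and less RNA per cell cannot be told apart. Between Fraction 1 and Fraction 2 the difference of -0.45 ± 0.14 missed the threshold (limma, adjusted p = 0.0520), and its sign turned on the values as deposited (0.91). The gene lies on chromosome 11 at 109362831 to 109401369 (plus strand). Its exons overlap the antisense gene Gm11696, whose level was at most 0.552.

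Gnai2, the main G alpha i protein of lymphocytes, was lowest in GC-PB and Fraction 1 and highest in Fraction 3 and DZ at equal totals. As deposited, Fraction 1 had the highest mean, 33.1, against 20.1 in GC-PB, 23.7 in Fraction 2, 24.8 in Fraction 3 and 24.9 in DZ. The libraries stood at 10.5, 12.8 and 12.0 in GC-PB, 11.5, 11.9 and 12.7 in Fraction 1, 24.6, 25.0 and 21.8 in Fraction 2, 32.6, 30.7 and 36.1 in Fraction 3 and 29.0, 35.1 and 31 in DZ. GC-PB and Fraction 1 overlapped, Fraction 2 lay above both, and Fraction 3 and DZ overlapped with each other above Fraction 2. Fraction 1 averaged 12.0 ± 0.584 against 23.8 ± 1.76 in Fraction 2, a difference of -0.92 ± 0.11 (limma, adjusted p = 2.25e-05) that turned to 0.46 on the values as deposited. GC-PB averaged 11.8 ± 1.18, and the difference from Fraction 1 of -0.04 ± 0.11 was not called (limma, adjusted p = 0.843). That value was 0.24 with size factors from median ratios and -0.71, then called, as deposited. Gnai2 also lay lower in Fraction 2 than in Fraction 3 (-0.46 ± 0.11, limma, adjusted p = 0.0641) and than in DZ (-0.40 ± 0.11, limma, adjusted p = 0.0546), without overlap but without a call. Fraction 2 against DZ passed the threshold with median ratios (-0.42, limma, adjusted p = 0.0465). Gnai2 is on chromosome 9 at 107614125 to 107635367 (minus strand).

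Gnai3, a second G alpha i protein, did not follow Gnai2. Its level was 0.931, 2.36 and 1.45 in GC-PB, 3.88, 4.94 and 4.31 in Fraction 1, 3.37, 2.88 and 2.95 in Fraction 2, 4.05, 4.91 and 2.47 in Fraction 3 and 4.0, 4.14 and 4.48 in DZ. GC-PB lay below the libraries of every other group, and Fraction 1, DZ and Fraction 3 overlapped in descending order of their means. GC-PB averaged 1.58 ± 0.726 against 4.38 ± 0.534 in Fraction 1, a difference of -1.09 ± 0.21 (limma, adjusted p = 0.000215; -1.86 as deposited). Fraction 1 lay above Fraction 2 (3.07 ± 0.264) without overlap, but the difference of 0.40 ± 0.21 was not called (limma, adjusted p = 0.280), whereas it was 1.67 and called as deposited. Gnai3 is on chromosome 3 at 108107280 to 108146146 (minus strand).

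A ratio of both G alpha i genes within a library does not depend on how the libraries are scaled. Gnai2 over Gnai3 was 2.97, 2.41 and 2.94 in Fraction 1, against 7.29, 8.68 and 7.37 in Fraction 2. It was 11.3, 5.42 and 8.29 in GC-PB, 8.04, 6.25 and 14.6 in Fraction 3 and 7.24, 8.47 and 6.90 in DZ. The Fraction 1 libraries thus lay below the 12 others. This ratio and that of Rgs10 to Rgs19 below were picked after the values were seen and were not tested, and they are compared between groups only, since a ratio of 2 genes is no ratio of levels per length. In 2 further ratios that were made, Fraction 1 did not stand apart. Arhgef1 over Rhoa was 0.291 to 0.453 in Fraction 1 and 0.359 to 0.539 in GC-PB. Rgs2 over Gna13 was 0.781 to 1.04 in Fraction 1 and 0.947 to 1.26 in DZ.

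**Figure D2:**
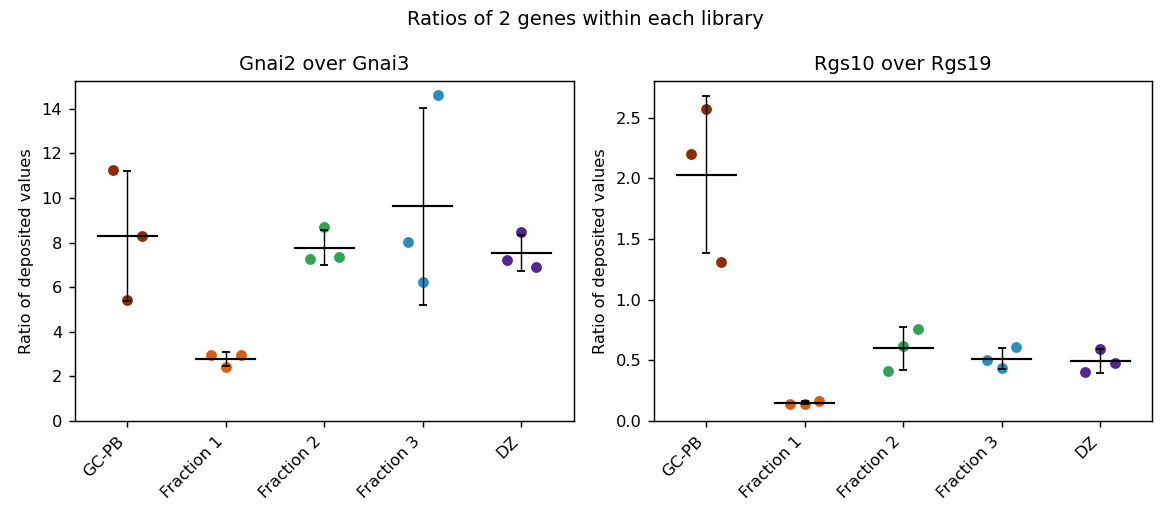
Ratio of Gnai2 to Gnai3 (left) and of Rgs10 to Rgs19 (right) within each library, from the deposited values, with points for libraries, lines for group means and bars for ± SD (n = 3). Fraction 1 has the lowest values in both panels (2.41 to 2.97 and 0.143 to 0.167), and GC-PB the highest of Rgs10 to Rgs19 (1.31 to 2.57).

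Arhgef1, the exchange factor that links G alpha 13 to RHOA, was lower in Fraction 1 than in Fraction 2 at equal totals, and Rhoa itself was called in no comparison at equal totals with all 5 groups in the fit. Arhgef1 stood at 4.89, 3.55 and 4.34 in GC-PB, 2.94, 3.76 and 3.57 in Fraction 1, 7.22, 8.30 and 6.89 in Fraction 2, 8.68, 11.2 and 8.98 in Fraction 3 and 9.13, 8.97 and 10.4 in DZ. Fraction 1 and GC-PB overlapped and lay below all 9 libraries of the other groups. The mean of 3.42 ± 0.429 in Fraction 1 against 7.47 ± 0.737 in Fraction 2 gave a difference of -0.94 ± 0.15 (limma, adjusted p = 0.000310), and 0.29, not called, as deposited. For GC-PB (4.26 ± 0.675) against Fraction 1 the call depended on the scale. The difference was 0.25 ± 0.15 at equal totals (limma, adjusted p = 0.212), 0.49 and called with median ratios (limma, adjusted p = 0.0118), and -0.35 and called as deposited (limma, adjusted p = 0.0477). Arhgef1 is on chromosome 7 at 24902912 to 24926594 (plus strand).

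Rhoa, the GTPase that drives contraction of actin and myosin below ARHGEF1, had the narrowest range of the 10 genes. It stood at 9.08, 7.39 and 12.1 in GC-PB, 10.1, 8.60 and 7.88 in Fraction 1, 11.4, 11.2 and 13.5 in Fraction 2, 11.6, 13 and 13.6 in Fraction 3 and 13.8, 13.1 and 14.6 in DZ. Neighbouring groups in the order of means overlapped, and the highest mean was 1.56 times the lowest. The difference of Fraction 1 from Fraction 2 was -0.40 ± 0.15 (limma, adjusted p = 0.0980), and 0.96 and called as deposited. With only these 2 groups in the fit it was called lower in Fraction 1 at equal totals (limma, adjusted p = 0.0337). GC-PB against Fraction 1 gave 0.07 ± 0.15 (limma, adjusted p = 0.744), and -0.59 and called as deposited. Rhoa (chromosome 9, 108306129 to 108337934, plus strand) overlaps an exon of Tcta on the other strand, which averaged 0.565 in GC-PB and at most 0.245 in the other groups. Since no source states that counting used strand, reads of the 2 genes may not be separable, and 2 GC-PB libraries held Rhoa at 37.5 and 58.5 multiples of the constant, values that are not whole.

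Rgs13, an RGS protein of germinal centre B cells, was at or near 0 in plasmablasts. Its level was 0, 0 and 0.207 in GC-PB, 2.82, 3.22 and 2.59 in Fraction 1, 5.18, 6.00 and 4.49 in Fraction 2, 8.10, 6.48 and 7.75 in Fraction 3 and 5.77, 5.66 and 5.50 in DZ. GC-PB, Fraction 1 and Fraction 2 followed each other upwards without overlap, and Fraction 3 lay above DZ. The 3 GC-PB libraries together held 1 multiple of the constant, against 75 in Fraction 1. Taken as molecules, this is a ratio of 0.0243 to Fraction 1 (95% exact interval 0.000608 to 0.140, counting error only). A floor of 3 multiples per GC-PB library corresponds to levels of 0.699, 0.591 and 0.620. The limma difference was -1.86 ± 0.16 (adjusted p = 6.05e-09), and -3.0 as deposited. Fraction 1 averaged 2.88 ± 0.323 against 5.22 ± 0.756 in Fraction 2, a difference of -0.68 ± 0.16 (limma, adjusted p = 0.00927) that turned to 0.52, called, as deposited. Without Fraction 2 replicate 2 it was -0.59 and no longer called (limma, adjusted p = 0.0652).

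Rgs2, which acts mainly on G alpha q, ran over a 13.6-fold range of group means. It stood at 2.56, 1.38 and 0.826 in GC-PB, 6.71, 7.20 and 9.36 in Fraction 1, 15.7, 18.2 and 15.6 in Fraction 2, 19.1, 24.5 and 21.1 in Fraction 3 and 17.3, 15.7 and 15.6 in DZ. GC-PB lay below Fraction 1 and Fraction 1 below the other groups, and Fraction 3 lay above Fraction 2 and DZ, which overlapped. GC-PB averaged 1.59 ± 0.886 against 7.75 ± 1.41 in Fraction 1, a difference of -1.80 ± 0.18 (limma, adjusted p = 8.06e-08; -2.67 as deposited). Fraction 1 against 16.5 ± 1.48 in Fraction 2 gave -1.01 ± 0.18 (limma, adjusted p = 0.00120), and 0.34, not called, as deposited. Fraction 3 against DZ gave 0.39 ± 0.18 and no call (limma, adjusted p = 0.487).

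Rgs1, which dampens chemokine responses through G alpha i, had the widest spread between libraries of the 10 genes, with an SE of 0.40. It stood at 5.12, 0 and 1.24 in GC-PB, 4.24, 5.48 and 7.26 in Fraction 1, 4.94, 8.07 and 5.03 in Fraction 2, 6.08, 10.2 and 11.8 in Fraction 3 and 8.65, 7.59 and 6.80 in DZ. Every pair of neighbours in the order of means overlapped, and GC-PB replicate 1 lay within the range of Fraction 1. GC-PB against Fraction 1 was called at -1.45 ± 0.40 (limma, adjusted p = 0.00618; -2.41 as deposited). Without GC-PB replicate 2, the library at 0, it was -0.82 (limma, adjusted p = 0.0482), and without GC-PB replicate 1 it was -2.13 (limma, adjusted p = 3.77e-06). Fraction 1 against Fraction 2 gave -0.07 ± 0.40 (limma, adjusted p = 0.974), and 1.24 and called as deposited.

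Rgs10, a small RGS protein that acts on G alpha i, was higher in GC-PB than in Fraction 1, the reverse of the other called genes. Its level was 2.56, 3.55 and 4.34 in GC-PB, 0.588, 0.645 and 0.616 in Fraction 1, 2.29, 3.00 and 2.41 in Fraction 2, 2.46, 2.28 and 2.99 in Fraction 3 and 2.24, 3.86 and 2.60 in DZ. The Fraction 1 libraries lay below the 12 others, among which GC-PB overlapped with DZ. These levels rest on 5 to 6 multiples of the constant per Fraction 1 library, against 11 to 21 per GC-PB library. GC-PB averaged 3.48 ± 0.890 against 0.616 ± 0.0283 in Fraction 1, a difference of 1.45 ± 0.19 (limma, adjusted p = 3.56e-06) that kept its sign as deposited (1.34) and with median ratios (1.71). Fraction 1 against 2.56 ± 0.381 in Fraction 2 gave -1.14 ± 0.19 (limma, adjusted p = 0.000705), and -0.40 and no call as deposited (limma, adjusted p = 0.126). Both comparisons use the same 3 Fraction 1 libraries.

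Rgs19, a partner of G alpha i proteins also known as GAIP, was lower in GC-PB. It stood at 1.16, 1.38 and 3.30 in GC-PB, 4.12, 4.51 and 3.69 in Fraction 1, 5.54, 4.84 and 3.17 in Fraction 2, 4.92, 5.26 and 4.93 in Fraction 3 and 5.61, 6.49 and 5.50 in DZ. GC-PB lay below Fraction 1 without overlap, and Fraction 2 overlapped with Fraction 1 and with Fraction 3. The mean of 1.95 ± 1.18 in GC-PB against 4.11 ± 0.411 in Fraction 1 gave -0.86 ± 0.21 (limma, adjusted p = 0.00288; -1.60 as deposited). Fraction 1 against Fraction 2 gave -0.09 ± 0.21 (limma, adjusted p = 0.883), and 1.18 and called as deposited. Within libraries, Rgs10 over Rgs19 was 2.20, 2.57 and 1.31 in GC-PB against 0.143, 0.143 and 0.167 in Fraction 1. It was 0.413 to 0.759 in Fraction 2, 0.433 to 0.607 in Fraction 3 and 0.400 to 0.596 in DZ, so that neither GC-PB nor Fraction 1 overlapped with the rest. Rgs19 is on chromosome 2 at 181688419 to 181693977 (minus strand).

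**Figure D3:**
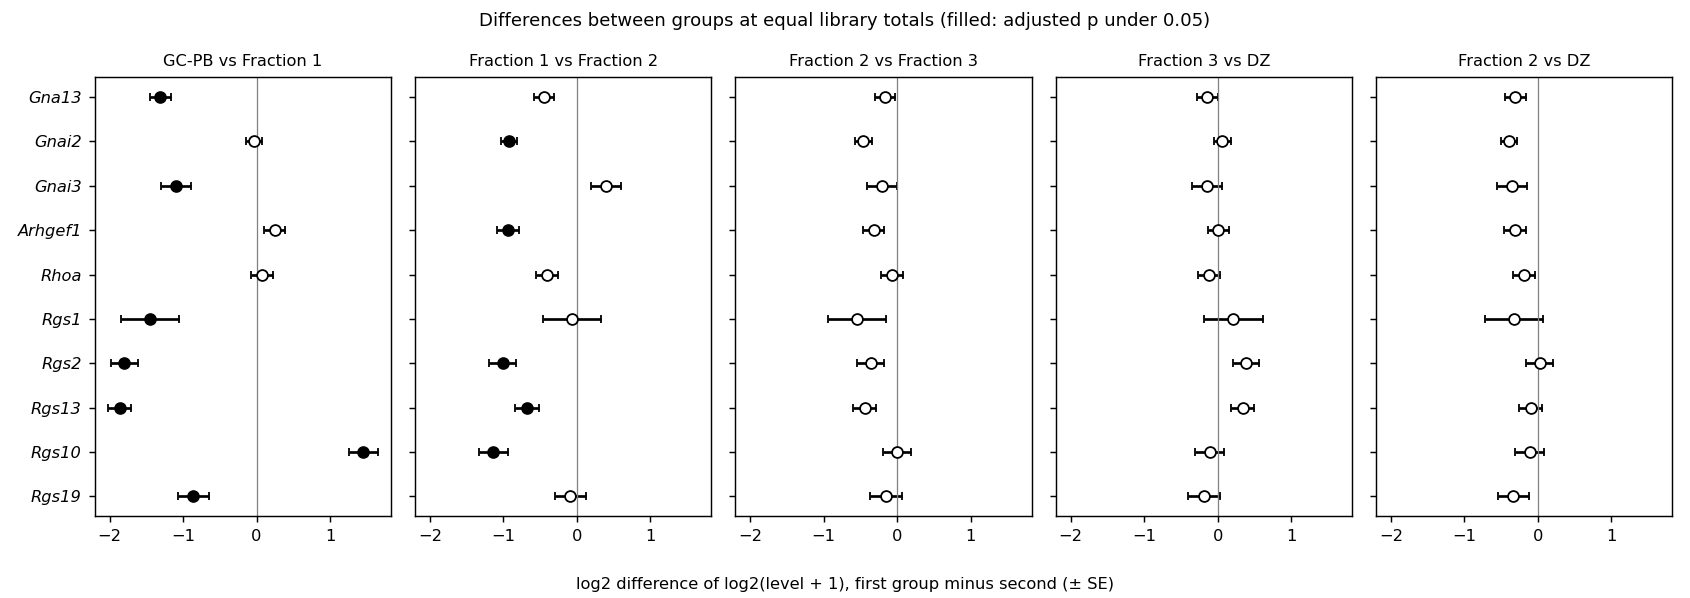
Difference of log2(level + 1) at equal totals, first group minus second, ± SE from limma, for the 10 genes in 5 comparisons, filled where the adjusted p was under 0.05. GC-PB vs Fraction 1 has 7 filled points, 1 of them to the right (Rgs10, 1.45), and 5 stand in Fraction 1 vs Fraction 2, all to the left at equal totals, while 4 of these 5 lie to the right of 0 on the values as deposited.

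The comparison of plasmablasts with Fraction 1 held the largest number of changes. Of the 10 genes, 6 were lower in GC-PB (Gna13, Gnai3, Rgs1, Rgs2, Rgs13 and Rgs19) and 1 higher (Rgs10), while Gnai2, Arhgef1 and Rhoa were not called. Among all tested genes 36.3% were called here, 22.3% lower and 14.1% higher. This share, like the other shares and medians over all tested genes, covers genes at every level, low ones included. Of the tested genes 5509 had a mean level of at least 1, all 10 genes among them. With only genes of such a mean in the fit, 3165 were called, 990 of them higher, and 7 of the 10 genes. The 36.3% over all tested genes thus understates the share called among genes at such levels. Libraries did not overlap for 5 of the 10 on the lower and 1 on the higher side, against 26.7% and 16.1% of all tested genes. The median difference was -0.98 over the 10 genes and -0.06 over all tested genes. As deposited, 9 of the 10 were lower and Rgs10 higher, where 45.8% of all genes were called lower and the median of all genes was -0.42. With median ratios, where the median of all genes was 0, 6 were called lower and 2 higher, Arhgef1 and Rgs10. The lower ones stood at -1.09 (Gna13), -0.92 (Gnai3), -1.34 (Rgs1), -1.64 (Rgs2), -1.90 (Rgs13) and -0.68 (Rgs19). All but Rgs13 were smaller in size than at equal totals. Gnai2 and Rhoa, not called, were 0.24 and 0.34. GC-PB differ from Fraction 1 also in the genotype of the donors and in tamoxifen, and neither can be told apart from the cell type. The summed level of T cell markers was 0.591 to 2.27 in GC-PB and 3.29 to 5.91 in Fraction 1, and that of the 6 B cell markers was 230 to 363 in GC-PB and 333 to 386 in Fraction 1, and their part in these differences was not tested.

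Fraction 1 against Fraction 2 asks how light zone cells with low Bcl6 differ from those with high Bcl6 at high CD69. At equal totals 5 of the 10 genes were lower in Fraction 1 (Gnai2, Arhgef1, Rgs2, Rgs10 and Rgs13) and none was higher, whereas as deposited 7 were higher and none lower. Among all tested genes 9.03% were called at equal totals, 5.25% lower and 3.79% higher. With only genes of a mean level of at least 1 in the fit, 1161 were called, 468 of them higher. Here too the share called was larger than the 9.03% over all tested genes. That fit called 6 of the 10 genes, with Gna13 added. As deposited 54.7% were called higher, 0.563% lower, and the median of all tested genes stood at 0.64. Relative to that median, 5 of the 10 genes lay below it as deposited, and these are the 5 called lower at equal totals. This match is no agreement between the scales. The median covers many genes at low levels, where the added 1 shrinks the shift, so it marks no point of no change for these genes. Gna13 (0.91) and Rhoa (0.96) lay above it as deposited, yet stood at -0.45 and -0.40, not called, at equal totals. Libraries did not overlap for 7 of the 10 genes on the lower side and for Gnai3 on the higher, against 16.3% and 11.9% of all tested genes. The median difference at equal totals was -0.56 over the 10 genes and -0.04 over all. Each of these 5 calls also held with median ratios, where the median of all genes was 0. The labels say that spike-in RNA was added for normalization, but not whether the deposited values were scaled to it, so which scale stands for RNA per cell was not determined.

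**Figure D4:**
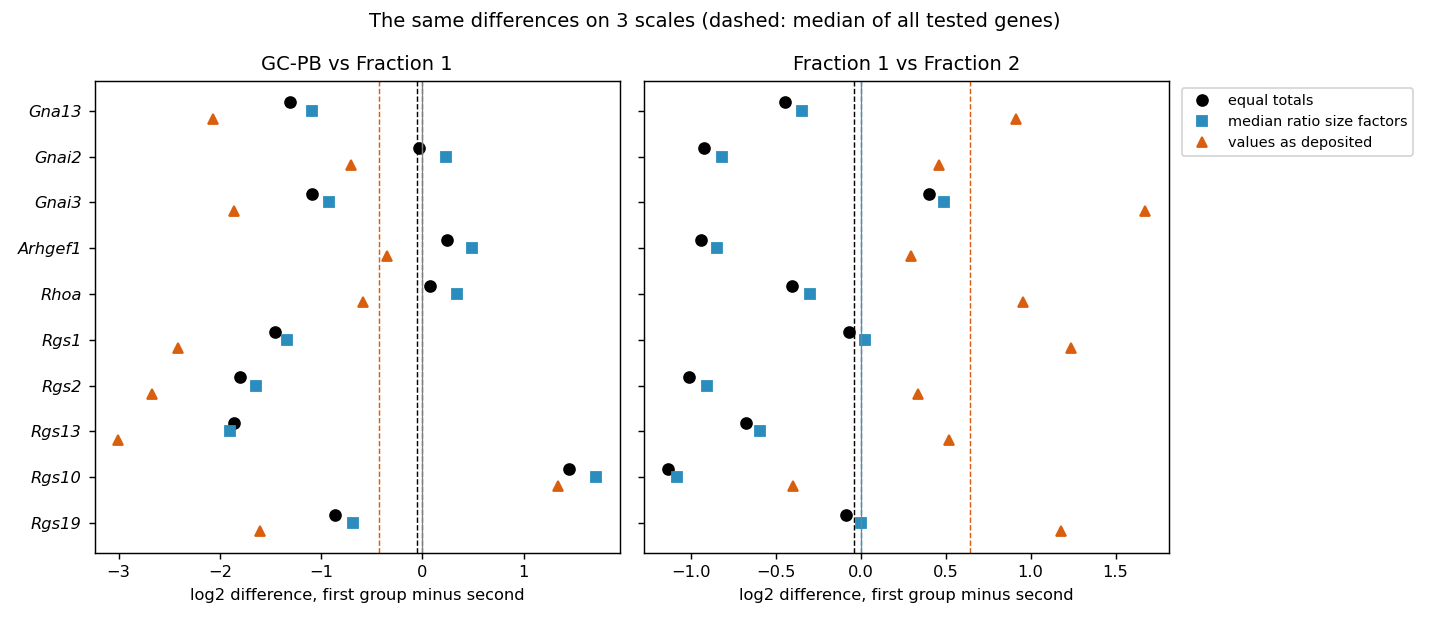
The differences GC-PB minus Fraction 1 (left) and Fraction 1 minus Fraction 2 (right) of the 10 genes on 3 scales, with dashed lines for the median of all tested genes on each scale. In the right panel 8 of the 10 genes change sign between equal totals and the values as deposited, where the median of all genes is 0.64, and in the left panel 2 do (Arhgef1 and Rhoa).

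Between Fraction 2, Fraction 3 and DZ, none of the 10 genes passed the threshold. Fraction 2 against Fraction 3, which differ in CD69, gave 0 calls (limma) among the 10 and 0.688% among all tested genes, with 3 of the 10 (Gnai2, Arhgef1 and Rgs13) at an unadjusted p under 0.05 as were 11.2% of all genes. Here all 10 differences were negative at equal totals, with 4 sets of libraries that did not overlap (Gnai2, Arhgef1, Rgs2 and Rgs13) against 8.38% of all genes on that side, but 7 of the 10 changed sign as deposited. Fraction 3 against DZ gave 0 calls (limma) among the 10 and 1.05% among all, with Rgs2 and Rgs13, both higher in Fraction 3, at an unadjusted p under 0.05 as were 10% of all genes. Rgs2 and Rgs13 did not overlap on the higher side and Rgs19 on the lower, against 7.87% and 6.43% of all genes. Fraction 2 against DZ gave 0 calls (limma) among the 10 and 3.5% among all, with Gna13, Gnai2 and Arhgef1 at an unadjusted p under 0.05 as were 14.4% of all genes. Gna13, Gnai2, Gnai3 and Arhgef1 lay lower in Fraction 2 without overlap, against 10.1% of all genes on that side. These comparisons share libraries, Fraction 2 against DZ having 3 in common with each of the others. With only the 2 groups in the fit, or only genes with a mean of at least 1, Gnai2 was called lower in Fraction 2 in both of its comparisons, against Fraction 3 and against DZ.

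The receptors that feed these G proteins were counted from a list of 17, of which 15 were tested. In GC-PB 3 were higher and 5 lower than in Fraction 1 (3 and 6 as deposited), beside 36.3% of all tested genes called at equal totals. Cxcr4, whose product is a sort marker of the dark zone, averaged 8.43 ± 0.986 in GC-PB against 1.64 ± 0.358 in Fraction 1 (1.84 ± 0.17, limma, adjusted p = 2.54e-08). Fraction 1 was itself sorted as low in CXCR4, and the markers of the GC-PB sort do not include it. This p-value is therefore no independent test of the receptor. Cxcr3, a receptor for inflammatory chemokines, averaged 1.82 ± 0.580 in GC-PB against 0.154 ± 0.134 in Fraction 1 (1.28 ± 0.21, limma, adjusted p = 5.10e-05). Cxcr5, which guides cells to follicles, averaged 0.427 ± 0.214 in GC-PB against 4.94 ± 0.824 in Fraction 1 (-2.06 ± 0.22, limma, adjusted p = 1.57e-07), and S1pr3 was listed at 0 in GC-PB against 1.11 ± 0.222 in Fraction 1. S1pr2, the receptor above Gna13 and the gene that drives the Cre of the GC-PB donors, averaged 0.714 ± 0.189 in GC-PB, 2.87 ± 1.27 in Fraction 1, 10.9 ± 0.824 in Fraction 2, 15.4 ± 2.09 in Fraction 3 and 14.6 ± 0.489 in DZ.

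Fraction 1 against Fraction 2 held 2 receptors higher and 2 lower at equal totals, against 7 and 0 as deposited. Of all tested genes 9.03% were called there at equal totals, and 54.7% were called higher as deposited. S1pr2 was lower in Fraction 1 (-1.67 ± 0.19, limma, adjusted p = 8.32e-06; -0.50 and not called as deposited), and Cxcr4 was lower at equal totals (-0.84 ± 0.17, limma, adjusted p = 0.00340) but 0.21 as deposited. Gpr183, which places B cells at the edge of follicles, averaged 1.65 ± 0.915 in Fraction 1 against 0.318 ± 0.369 in Fraction 2 (0.99 ± 0.27, limma, adjusted p = 0.0217). Ccr7, which draws cells to the T zone, averaged 0.461 ± 0.231 in Fraction 1 against 0.0365 ± 0.0632 in Fraction 2 (0.48 ± 0.14, limma, adjusted p = 0.0398). Leaving out Fraction 2 replicate 2, Fraction 2 replicate 3 or Fraction 1 replicate 3 ended the call of Gpr183 (limma, adjusted p up to 0.133). Ccr7 lost its call in 5 of the 6 fits with 1 library left out, Fraction 1 replicate 3 being the exception (limma, adjusted p up to 0.197). In Fraction 3 against DZ, Ccr6 was higher (0.76 ± 0.12, limma, adjusted p = 0.00342; 0.60 and not called as deposited, adjusted p = 0.0693) and Cxcr4, by which these groups were sorted, lower (-0.77 ± 0.17, limma, adjusted p = 0.0302; -0.81 and not called as deposited, adjusted p = 0.0834). This call of Cxcr4 was lost without any library but Fraction 3 replicate 1 (limma, adjusted p up to 0.179).

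Other subunits and regulators were counted in the same way. The shares of all tested genes called at equal totals were 36.3% for GC-PB against Fraction 1 and 9.03% for Fraction 1 against Fraction 2. Of 19 tested G protein subunits outside the 10 genes, 5 were higher and 4 lower in GC-PB than in Fraction 1 (2 and 6 as deposited). Gng2, a gamma subunit, averaged 2.90 ± 0.292 in GC-PB against 0.704 ± 0.245 in Fraction 1 (1.2 ± 0.19, limma, adjusted p = 3.05e-05), and Gnas, the G alpha s gene, 45.4 ± 8.73 in GC-PB against 26.9 ± 1.89 in Fraction 1 (0.72 ± 0.11, limma, adjusted p = 3.16e-05; 0.04 and not called as deposited). Gng10 averaged 1.92 ± 0.380 in GC-PB against 9.91 ± 1.02 in Fraction 1, and Gngt2 0.269 ± 0.233 in GC-PB against 2.01 ± 0.161 in Fraction 1. In Fraction 1 against Fraction 2, 3 subunits were lower and none higher at equal totals, against 0 lower and 9 higher as deposited, among them Gnas at -0.52 ± 0.11 and Gngt2 at -0.81 ± 0.18 at equal totals. Of 11 other RGS genes and G alpha modulators, 1 was higher (Rgs3) and 2 lower (Gpsm3, and Rgs9, which was listed at 0 in GC-PB) in GC-PB than in Fraction 1, and 1 was lower in Fraction 1 than in Fraction 2 (Gpsm3, -0.66 ± 0.17; 0.39 as deposited). Rgs3 lost its call without GC-PB replicate 1 or 3 (limma, adjusted p up to 0.0786), Rgs9 in 5 of 6 fits (limma, adjusted p up to 0.0746; Fraction 1 replicate 2 being the exception), and Gpsm3 against Fraction 2 without Fraction 2 replicate 1 or 3 or Fraction 1 replicate 1 (limma, adjusted p up to 0.105).

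Among 14 tested effectors of G beta gamma and G alpha i, 3 were higher and 4 lower in GC-PB than in Fraction 1 (3 and 6 as deposited). Beside this count and that of the receptor kinases below stand the same 36.3% of all tested genes, and 9.03% for Fraction 1 against Fraction 2. Pik3cg, the catalytic subunit of PI3 kinase gamma, averaged 8.65 ± 1.21 in GC-PB against 0.647 ± 0.359 in Fraction 1 (2.57 ± 0.19, limma, adjusted p = 5.83e-10; 2.55 as deposited). Pik3r5, a regulatory subunit of that kinase, averaged 1.89 ± 0.460 in GC-PB against 0.0410 ± 0.0711 in Fraction 1 (1.46 ± 0.13, limma, adjusted p = 1.00e-08; 1.92 as deposited). That Fraction 1 mean lies under the level of 3 multiples of the constant, 0.322 to 0.369 in the Fraction 1 libraries. These 2 subunits of the G beta gamma-activated kinase, named for the smallest p in the list, were thus higher in GC-PB on either scale. Elmo1, which works with Dock proteins to activate Rac, averaged 0.917 ± 0.123 in GC-PB against 3.63 ± 0.274 in Fraction 1, and Prkacb, a catalytic subunit of protein kinase A, 0.983 ± 0.0507 in GC-PB against 2.57 ± 0.524 in Fraction 1. Of 5 tested receptor kinases and arrestins, 1 was higher (Grk4) and 2 lower (Adrbk1 and Arrb2) in GC-PB than in Fraction 1, and 1 was lower in Fraction 1 than in Fraction 2 (Grk6, -0.83 ± 0.18; 0.38 as deposited). Grk4 lost its call without Fraction 1 replicate 1, GC-PB replicate 1 or GC-PB replicate 2 (limma, adjusted p up to 0.104), and Adrbk1 without Fraction 1 replicate 2 or GC-PB replicate 1 (limma, adjusted p up to 0.151). Arrb2 lost it without any library but GC-PB replicate 1 (limma, adjusted p up to 0.0921).

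In Fraction 2 against DZ, 1 of the 15 tested receptors was higher and 3 were lower (1 and 1 as deposited), 2 of the 19 subunits were lower (0 as deposited) and 1 of the 14 effectors was lower (0 as deposited), beside 3.5% of all tested genes called in either direction. Cxcr4, the sort marker, averaged 3.78 ± 1.11 in Fraction 2 against 11.8 ± 1.57 in DZ (-1.44 ± 0.17, limma, adjusted p = 2.51e-05; -1.12 and called as deposited). S1pr3 averaged 1.30 ± 0.274 in Fraction 2 against 0.435 ± 0.116 in DZ (0.68 ± 0.18, limma, adjusted p = 0.0359; 0.78 and called as deposited), and leaving out any 1 of the 6 libraries ended the call at equal totals (limma, adjusted p up to 0.149). Gng2 averaged 1.39 ± 0.474 in Fraction 2 against 3.13 ± 0.426 in DZ, and Gnb4 0.338 ± 0.283 in Fraction 2 against 1.21 ± 0.430 in DZ, neither called as deposited. Gng2 lost its call without DZ replicate 1, DZ replicate 2 or Fraction 2 replicate 3 (limma, adjusted p up to 0.129), and Gnb4 without DZ replicate 2 or 3 or Fraction 2 replicate 1 or 2 (limma, adjusted p up to 0.215). Pik3cg averaged 1.30 ± 0.112 in Fraction 2 against 3.42 ± 0.590 in DZ (-0.93 ± 0.19, limma, adjusted p = 0.00596; -0.67 and not called as deposited, adjusted p = 0.133). S1pr4, a further sphingosine phosphate receptor, averaged 0.342 ± 0.0985 in Fraction 2 against 1.67 ± 0.468 in DZ (-0.98 ± 0.18, limma, adjusted p = 0.00284; -0.77 and not called as deposited, adjusted p = 0.0717).

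The genes with patterns most like each of the 10 were sought among 5508 genes with a mean level of at least 1, by the root mean square difference over the 15 libraries of log2(level + 1), each gene centred on its own mean. All libraries enter this measure with their own depth, and it is given as a description. Nearest to Gna13 was Ppp4r2 (0.105), at 3.98 in GC-PB, 11 in Fraction 1, 15.5 in Fraction 2, 17.4 in Fraction 3 and 17.6 in DZ, followed by Clic1 (0.190) and Myo1e (0.192). Nearest to Gnai2 were Plekha2 (0.140), Arpc5l (0.187) and BC017643 (0.198), and to Gnai3 Eif4h (0.191), Cyb5b (0.197) and Prdx5 (0.198). Arhgef1 was closest to Coro7 (0.151), Dync1i2 (0.171) and Ncoa1 (0.176). Rgs13 was closest to Pold4 (0.173), Tpm4 (0.186) and Ms4a1 (0.208), which encodes CD20. Pold4 (0.250) was also among the nearest to Rgs2, with Tmem131 (0.246) and Tnfaip8 (0.264). For Rgs10 they were Rasa3 (0.247), Tnrc6b (0.249) and Ccdc71l (0.252), each lowest in Fraction 1. Rgs19 was closest to Hnrnpa2b1 (0.175), Arhgef2 (0.203) and Isy1 (0.206), and Rgs1, at larger distances, to Dusp2 (0.379), Plek (0.414) and Myo1e (0.428). Rhoa spanned 0.593 between its highest and lowest group means on this scale, under the 1 required, and was left out.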

How the data were processed

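Per the labels' protocols, the authors lysed 100 sorted cells per tube in the presence of ERCC spike-in RNA, whose amount was constant, fragmented the RNA by heat, added molecular barcodes with an oligo-dT primer and amplified by template switching and PCR. Per the submitters' processing notes, reads were aligned to mm10 with TopHat2, while counting and scaling are not given in the sources used here. The deposited table holds a signal per gene and library, with no ERCC rows used here, and 0 columns of values were left unused. Since the signal is not whole counts, no count model was run.

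Signals were brought to a common total of 38594, the median over libraries, with Rn45s left out of the total. The test was limma 3.58.1 (R 4.3.3, trend on mean level, two-sided) on log2(signal + 1), in 1 model of all 5 groups, for the 11190 genes that 3 or more libraries held above 0. The genes followed and all lists were chosen with earlier results of these data known. From each list, called genes were counted by direction and up to 2 per direction and comparison with the smallest p were eligible to be named. A marker gene and some lists are not reported here. S1pr2 levels in all groups and ratios of 2 genes were added after values were seen. Interval and floor of Rgs13 take multiples of a library's constant as molecules. Gene positions are from GENCODE M21 (mm10), and promoters from RefSeq. Python 3.11.15 made tables and figures. The fit was also run on simulated data in which only Fraction 1 was changed, without the divide of the constant. Its outcome is not used here. Alternatives were the values as deposited, median ratio size factors, pseudocounts of 0.5 and 2, no filter, a mean of at least 1, only the 2 groups compared, a replicate block and each library left out.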

Additional observations from a re-analysis of the deposited data

How the results depend on the processing

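At equal totals, the 7 calls of GC-PB against Fraction 1 held under every alternative of the test, and the 5 calls of Fraction 1 against Fraction 2 under each but the values as deposited and, for Rgs13, leaving out Fraction 2 replicate 2. As deposited, Fraction 1 minus Fraction 2 became 0.91 for Gna13, 0.46 for Gnai2, 0.29 for Arhgef1, 0.96 for Rhoa, 1.24 for Rgs1, 0.34 for Rgs2, 0.52 for Rgs13 and 1.18 for Rgs19, and GC-PB minus Fraction 1 became -0.35 for Arhgef1 and -0.59 for Rhoa. With median ratios, Rgs1 (0.025) and Rgs19 (0.0022) changed sign in Fraction 1 against Fraction 2, and Gnai2 (0.24) in GC-PB against Fraction 1. Leaving out single libraries gave -0.24 to 0.13 for Rgs1 and -0.28 to 0.046 for Rgs19 in Fraction 1 against Fraction 2, and -0.10 to 0.038 for Gnai2 and -0.10 to 0.23 for Rhoa in GC-PB against Fraction 1. Gna13 in Fraction 1 against Fraction 2 passed the threshold with a pseudocount of 2, a mean of at least 1 or only the 2 groups (limma, adjusted p = 0.0375, 0.0331 and 0.0100), and Rhoa there with only the 2 groups (limma, adjusted p = 0.0337).

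Genes called as deposited numbered 27 for Fraction 3 against DZ (118 at equal totals), 301 for Fraction 2 against Fraction 3 (77), 6183 for Fraction 1 against Fraction 2 (1011) and 6380 for GC-PB against Fraction 1 (4064). For Fraction 2 against Fraction 3 they were 45 with median ratios, 152 with a mean of at least 1 and 189 with only the 2 groups, which also gave 1533 for Fraction 1 against Fraction 2 and 590 for Fraction 2 against DZ (392). With 1 library left out, which also leaves fewer samples, they were 40 to 96 for Fraction 3 against DZ, 17 to 39 for Fraction 2 against Fraction 3, 551 to 683 for Fraction 1 against Fraction 2, 3497 to 3827 for GC-PB against Fraction 1 and 212 to 276 for Fraction 2 against DZ. Of the 10 genes, 1 (Gnai2) was called in Fraction 2 against Fraction 3 with a mean of at least 1 or only the 2 groups, and 1 (Gnai2) in Fraction 2 against DZ with median ratios, a pseudocount of 2, a mean of at least 1 or only the 2 groups. The cause of these shifts was not tested. With the replicate block, 40 genes were called in Fraction 2 against Fraction 3, and 20 of 20 differences of the 10 genes in Fraction 1 against Fraction 2 and GC-PB against Fraction 1 kept direction and call. Same-numbered libraries deviated together with correlations of -0.0454 to 0.0526 over 5509 genes, so the numbers were not taken as pairs.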
